A study of Mus musculus with 24 samples.

Results

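IFN epsilon at 10 IU/ml was set against IFN beta at 100 IU/ml in ID8 cells, a line of mouse ovarian cancer cells that can be grown in culture and transplanted into mice. The question was whether a 10-fold lower dose of IFN epsilon gave the same response, gene by gene. The comparison holds 5 of the 24 arrays of the series, which are 3 samples of IFN epsilon (replicates 1, 2 and 3) and 2 samples of IFN beta (replicates 1 and 2). They were chosen by their labels, and the pair of doses was chosen with earlier results of these arrays known, so the differences between both groups are given as a description.

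All cells were ID8 cells without a genetic change named in the labels, cultured with foetal calf serum and treated for 3 h with recombinant mouse interferon. Untreated cells received the vehicle, phosphate-buffered saline, and gave 3 samples with 2 arrays each. The same 2 interferons were also used at 10, 100 and 1000 IU/ml, which gave 19 samples in 7 groups that the labels do not exclude. Replicates were made on separate dates, and the cells of each sample came from technical replicates that were combined. The line is a single cell line, so the 3 replicates are repeats of 1 culture system and not of different animals. Doses are stated in IU/ml by the labels, and the assay that defined the unit of each interferon is not given in the sources used here.

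Type I interferons, of which IFN beta and IFN epsilon are 2 members, bind a shared receptor made of the chains Ifnar1 and Ifnar2. The receptor activates the kinases Jak1 and Tyk2, which phosphorylate transcription factors of the Stat family, and these join Irf9 to form a complex that binds the interferon-stimulated response element (ISRE) in promoters. The genes that follow encode antiviral effectors, sensors of viral nucleic acids, antigen presentation proteins and feedback inhibitors of the pathway. IFN beta is made by most cells on infection, whereas IFN epsilon is known for its constitutive expression in the epithelium of the female reproductive tract.

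The labelled cell type was first set against its markers. Of the 11 epithelial or mesothelial markers, Krt8, Krt18, Krt19, Wt1, Msln, Cdh2 and Vim were well above background in all 19 samples, while Pax8 was above it in 2 of 19. Among the leukocyte markers, Ptprc, Cd79a, Lyz2 and Nkg7 were above background in 0 of 19 samples, Adgre1 and Tyrobp in 1, and Cd3e, Itgam and Csf1r in all 19. Of the 11 endothelial, fibroblast and adipocyte markers, Cdh5 was above it in 0 samples and Tek, Adipoq and Plin1 in 1, while Pecam1, Kdr, Pdgfra, Col1a1, Col1a2, Dcn and Fabp4 were above it in all 19. Over the 24 arrays, the 75th percentile of intensity was 619 on the array of IFN epsilon 10 replicate 3, the lowest, and 1201 on the highest, and from 49.6% to 58.8% of spots were well above background.

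Interferon-responsive genes (responders) rose by a log2 fold change of at least 1 at 1000 IU/ml of both interferons, with an adjusted p under 0.05. At that dose and adjusted p, IFN epsilon raised 624 genes (4.32% of genes tested) and lowered 561 (3.89%), and IFN beta raised 393 (2.72%) and lowered 69 (0.478%). The rule gave 278 responders of 14428 genes tested. Neither treated group of the pair is in its contrasts, but the fit of all 19 samples holds both, so they enter its adjusted p. Without IFN epsilon 10 replicate 1, 2 or 3, the rule gave 256, 257 and 266 responders. The untreated samples enter this rule and the comparisons with untreated cells.

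Levels are given as log2 intensity minus the 75th percentile of the same array, so 1 unit is a factor of 2. Over the responders, the median level of an IFN epsilon 10 sample was -0.34 in replicate 1, -0.11 in replicate 2 and -0.0027 in replicate 3. For IFN beta 100 it was -0.45 in replicate 1 and -0.19 in replicate 2, and for untreated cells -0.90, -1.09 and -1.08. All 5 treated samples lay above the 3 untreated ones, and the groups of the pair overlapped. In such bulk samples, a change in fewer cells and a smaller change in all cells cannot be told apart. Measured gene by gene against the untreated sample of the same replicate, the median rise with IFN epsilon 10 was 0.42, 0.60 and 0.86 in replicates 1, 2 and 3, and with IFN beta 100 it was 0.44 and 0.56 in replicates 1 and 2. When the median rise was interpolated on a log dose scale between the IFN beta doses of the same replicate, 10 IU/ml of IFN epsilon fell at 87.8 IU/ml of IFN beta in replicate 1 and at 107 IU/ml in replicate 2. Both estimates share the untreated sample and the IFN beta 100 sample of their replicate with the comparison, and they have no error beyond their difference.

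**Figure D1:**
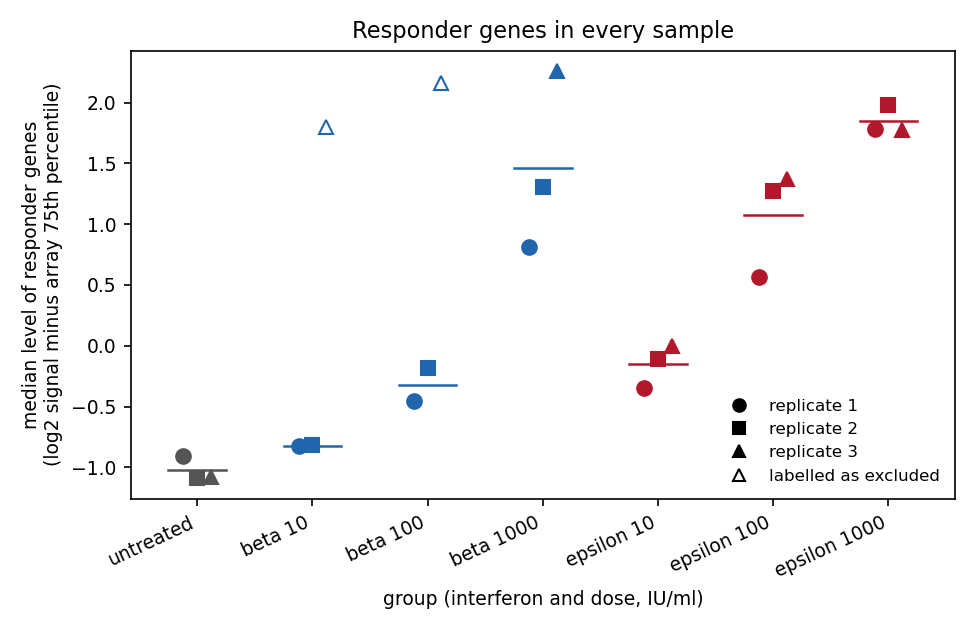
Median level of the 278 responder genes in each sample (y axis, log2 intensity minus the array's 75th percentile) by interferon and dose in IU/ml (x axis), with replicates as symbols, group means of the samples in use as lines and arrays labelled as excluded as open triangles. IFN epsilon 10 (-0.34, -0.11 and -0.0027) and IFN beta 100 (-0.45 and -0.19) overlap, and the excluded IFN beta 100 array lies at 2.16.

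The third IFN beta 100 array was left out because the labels exclude it for its high induction of interferon genes, which is the outcome compared here. Its median rise of the responders over untreated replicate 3 was 2.80, against 0.86 for IFN epsilon 10 in the same replicate. The excluded IFN beta 10 array of that replicate also stood high, at 2.29, and IFN beta 1000 replicate 3, which the labels keep, stood at 2.95 against 1.32 and 1.92 in replicates 1 and 2. With all 24 arrays in the fit, the median difference of the pair was -0.54 over the 115 responders that the rule then gave, with 1 of them above 0, and 0 genes were called. Without the 2 excluded arrays the median was 0.038, as given next.

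In the fit across all genes (limma, replicate number as a block), 0 of 14428 genes were called higher with IFN epsilon 10 (0% of genes tested) and 0 were called lower (0%), at an adjusted p under 0.05. The smallest adjusted p was 0.9999, and 376 genes had an unadjusted p under 0.05 (limma). With no difference in any gene, 721 would be expected, and the reason for the lower count was not tested. Because the pair was chosen for likeness, nothing is read from these counts, and the intervals carry the description. Fitted differences also draw on IFN epsilon 10 replicate 3, which has no IFN beta 100 partner in use. It enters through a replicate effect shared by all groups, so a fitted difference can lie outside both matched differences. Over the 278 responders the median difference, IFN epsilon 10 minus IFN beta 100, was 0.038 on the log2 scale (quartiles -0.092 and 0.18), with 160 genes above 0 and 118 below. Over all genes tested the median was -0.0040 (quartiles -0.085 and 0.075).

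The precision differed between these classes. The 95% interval lay within a 2-fold difference either way for 179 of 278 responders (64.4%), against 87.8% of all genes tested, and the median half-width was 0.68 for responders and 0.28 for all genes. For the remaining responders a 2-fold difference could not be told apart from none with 3 and 2 samples. The interval left out 0 for 3 of 278 responders (1.08%), against 376 of all genes (2.61%). These 3, named after their values were seen, were Hsh2d, Gm16675 and Gm26637, all lower with IFN epsilon. Over the 48 genes that fell at 1000 IU/ml of both interferons, the median difference was 0.020.

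Within replicates, the median responder difference was -0.013 in replicate 1, where both arrays lay on 1 slide, and 0.15 in replicate 2, where they lay on different slides. With slide as a random block in the fit it was -0.014. Higher with IFN epsilon in both replicates were 91 of 278 responders (32.7%, against 17.2% of all genes tested), and lower in both were 43 (15.5%, against 25.1%). The other 144 changed sign between replicates. Across the 278 responders, replicate 1 and replicate 2 differences had a Pearson r of 0.175 and a Spearman rho of 0.070. Across all genes tested they were -0.136 and -0.201, so the sign was opposite. These values describe genes that share arrays. Only Ifit1bl1 and Iigp1 differed by over 2-fold the same way in both, among 19 genes tested that did (0.132%). All 3 IFN epsilon samples lay above both IFN beta samples for 33 responders (11.9%, against 3.13% of all genes with a value in all 5 samples), and below for 6 (2.16%, against 3.29%). Replicate 3 has no IFN beta partner in that count.

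**Figure D2:**
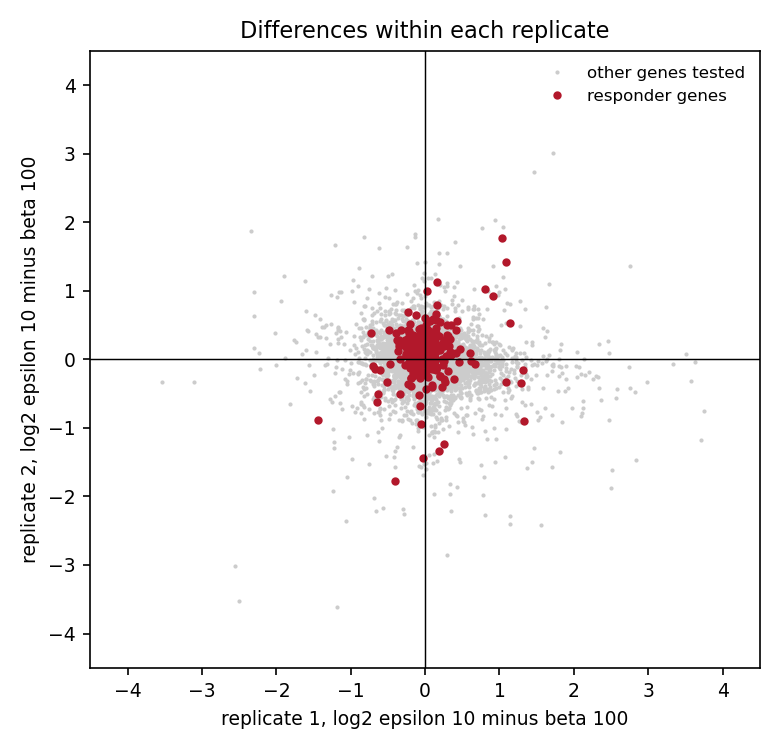
Log2 difference of IFN epsilon 10 minus IFN beta 100 in replicate 1 (x axis) and replicate 2 (y axis), with a point per gene, responders in red and the other genes tested in grey. Most responders crowd around 0 on both axes, and the 2 of them past 1 on both axes are Ifit1bl1 and Iigp1.

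Each treatment was also set against untreated cells. IFN epsilon 10 raised 74 genes (0.513% of genes tested) and lowered 0, and IFN beta 100 raised 41 (0.284%) and lowered 0. These comparisons share the untreated samples. Of the genes raised, 70 of the 74 and 40 of the 41 were responders, and 40 genes were called in both, which is 54.1% of the first list and 97.6% of the second. The median change of the responders was 0.58 with IFN epsilon 10 and 0.62 with IFN beta 100. IFN beta 100 has 2 samples and IFN epsilon 10 has 3, so the same change has a larger standard error with IFN beta. The first count was 47 without untreated replicate 2, and the second was 20 and 23 without untreated replicates 2 and 3, 0 without IFN beta 100 replicate 1 and 219 without its replicate 2. Both counts were 0 (limma) when only the groups compared were fitted, with 709 and 542 genes at an unadjusted p under 0.05. Called with IFN beta 100 only was Hecw2, a ubiquitin ligase, at 0.98 ± 0.17 (SE, adjusted p = 0.030) against 0.12 ± 0.15 with IFN epsilon 10. Its pair difference was -0.87 (95% interval -1.23 to -0.51), -0.94 in replicate 1 and -0.77 in replicate 2, and it was not well above background on all 5 arrays.

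Antiviral effectors formed the group with the most genes raised by either treatment. Of 51 measured, 34 rose with IFN epsilon 10 and 19 with IFN beta 100, and 0 fell. Of all genes tested, 0.513% and 0.284% rose, the shares to set beside this list and the later ones. The median pair difference was 0.17, with 25 genes higher with IFN epsilon in both replicates and 5 lower in both. Of all genes tested, 17.2% were higher in both and 25.1% lower in both. For 34 of the 51, the interval of the pair stayed within 2-fold, against 87.8% of all genes tested.

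Isg15, a ubiquitin-like protein that is attached to other proteins, stood at 5.61, 5.90 and 6.63 with IFN epsilon 10 in replicates 1, 2 and 3. It stood at 5.47 and 5.65 with IFN beta 100 in replicates 1 and 2, and at 3.36, 2.59 and 4.37 in untreated cells. The treated groups overlapped and both lay above all untreated samples. The pair difference was 0.21 ± 0.27 (SE, n = 3 and 2; 95% interval -0.38 to 0.80), while the rises over untreated cells were 2.61 ± 0.24 (adjusted p = 0.00029) and 2.40 ± 0.27 (adjusted p = 0.0031).

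Ifit1, which binds viral RNA that lacks the host's cap methylation, stood at 0.61, 2.35 and 3.21 with IFN epsilon 10 and at 0.76 and 2.44 with IFN beta 100. In untreated cells it stood at -2.38, -2.50 and -0.49. Replicate 1 was the lowest sample in both treated groups, and within replicates the pair differed by -0.14 and -0.08. The fitted difference was 0.02 ± 0.48 (interval -1.02 to 1.07), so the interval was wider than 2-fold although both matched differences were small. That fit also draws on the unpaired IFN epsilon 10 replicate 3, and over replicates 1 and 2 alone the difference was -0.11. The rises over untreated cells were 3.85 ± 0.42 (adjusted p = 0.00083) and 3.83 ± 0.48 (adjusted p = 0.0042).

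Oas3, which makes the 2′-5′ linked adenylates that activate RNase L, stood at -1.54, -1.13 and -1.11 with IFN epsilon 10. It stood at -1.70 and -1.92 with IFN beta 100 and at -4.46, -4.71 and -4.15 untreated. All IFN epsilon samples lay above both IFN beta samples. The pair difference of 0.58 ± 0.32 had an interval from -0.12 to 1.27, and it came mostly from replicate 2 (0.79, against 0.15 in replicate 1). Oas2, of the same family, differed by 0.21 ± 0.37 with overlapping groups. Trim30a, an interferon-induced Trim protein, showed the pattern of Oas3, with -1.56, -0.67 and -0.69 against -1.72 and -1.79. Its difference was 0.76 ± 0.38 (interval -0.07 to 1.59), 0.16 in replicate 1 and 1.12 in replicate 2.

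Ifit1bl1, a relative of Ifit1, had the largest positive difference among responders well above background on all 5 arrays. It stood at -4.42, -3.32 and -2.66 with IFN epsilon 10 and at -5.45 and -5.09 with IFN beta 100, and was not well above background in any of the 3 untreated samples. The groups did not overlap, and the pair differed by 1.03 and 1.77 within replicates, with a fitted 1.24 ± 0.93 (interval -0.79 to 3.27).

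Rsad2, which encodes viperin, lay on the other side. Its levels were -2.33, -0.92 and -0.45 with IFN epsilon 10, -2.25 and -0.39 with IFN beta 100, and -4.28, -4.19 and -2.86 untreated. The treated groups overlapped, and the pair differed by -0.09 and -0.53 within replicates (fit -0.46 ± 0.80, interval -2.20 to 1.28). Its neighbour Cmpk2, a nucleotide kinase, differed by 0.15 and 0.19 within replicates (fit 0.18 ± 0.58).

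**Figure D3:**
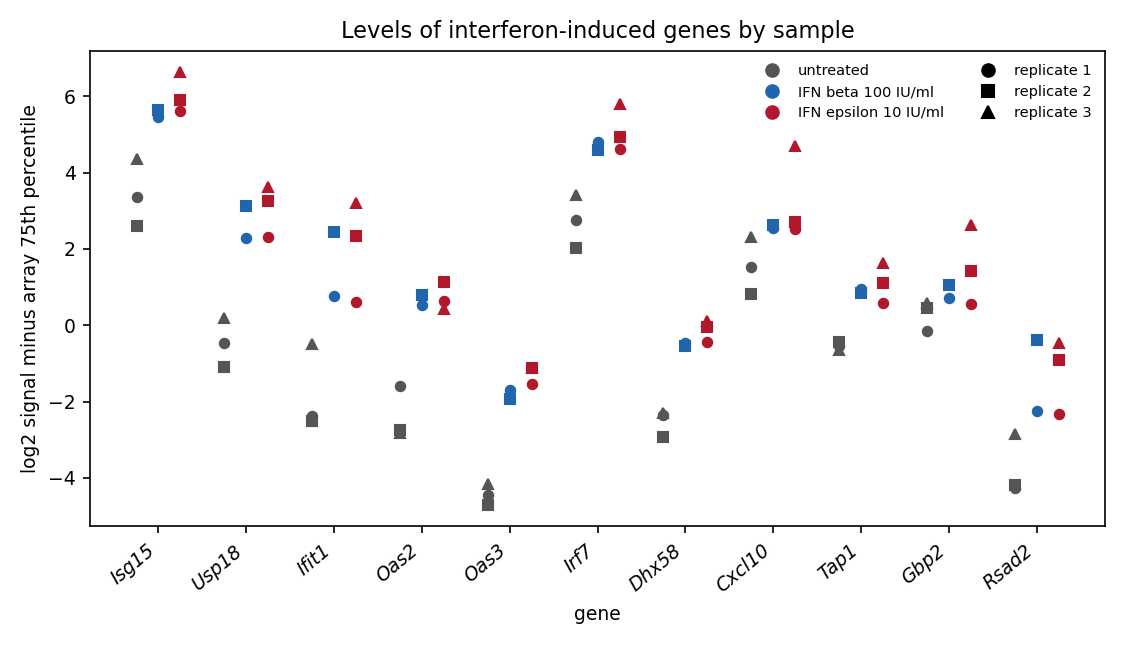
Level of 11 interferon-induced genes (y axis, log2 intensity minus the array's 75th percentile) in untreated cells (grey), IFN beta 100 IU/ml (blue) and IFN epsilon 10 IU/ml (red), with replicates as symbols. For Isg15, Usp18 and Ifit1 the treated groups overlap (Isg15 from 5.47 to 5.65 and from 5.61 to 6.63), while the Oas3 samples of IFN epsilon all lie above those of IFN beta.

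Among 20 measured sensors of RNA and DNA, 7 rose with IFN epsilon 10 and 5 with IFN beta 100, and the median pair difference was 0.021. Ddx58, which encodes RIG-I, stood at 3.36, 3.57 and 4.15 with IFN epsilon 10 and at 3.30 and 3.19 with IFN beta 100, above 1.97, 1.67 and 2.38 untreated. The groups of the pair did not overlap, but replicate 1 differed by 0.05 only, and the fitted difference was 0.26 ± 0.17 (interval -0.11 to 0.62). Dhx58 (LGP2), a regulator of RIG-I, differed by 0.02 and 0.50 within replicates (fit 0.29 ± 0.26). Ifih1, which encodes the sensor MDA5, had the largest fitted difference of the list, 0.40 ± 0.24 (interval -0.12 to 0.92), with 0.30 and 0.33 within replicates.

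The pathway that carries the signal was measured through 20 genes of the JAK-STAT and IRF list, of which 4 rose with IFN epsilon 10 and 3 with IFN beta 100. Irf7, Irf9 and Stat2 rose with both. The median pair difference was 0.0025, and 18 of 20 intervals lay within 2-fold, near the share of all genes tested (87.8%).

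Stat2, which is phosphorylated at the receptor, stood at 2.96, 3.74 and 3.99 with IFN epsilon 10 and at 3.44 and 3.81 with IFN beta 100, with overlapping groups (pair difference -0.18 ± 0.26). Irf9, which gives the complex its DNA contacts, differed by -0.07 ± 0.17 (interval -0.44 to 0.30). Irf7, a regulator of interferon genes, stood at 4.61, 4.94 and 5.79 against 4.80 and 4.58. Those groups overlapped, with matched differences of opposite sign, -0.19 and 0.36. The receptor chains were called with neither treatment, and their pair differences were 0.06 ± 0.12 for Ifnar1 and 0.03 ± 0.09 for Ifnar2 (interval -0.17 to 0.23).

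Among 17 negative feedback genes, Usp18 alone was called, in both treatments. Usp18, which removes Isg15 and blocks Ifnar2 signalling, stood at 2.30, 3.25 and 3.63 with IFN epsilon 10 and at 2.29 and 3.14 with IFN beta 100. In untreated cells it stood at -0.45, -1.08 and 0.20. Both matched differences were small, 0.01 and 0.12, and the fitted one was 0.10 ± 0.33 (interval -0.63 to 0.83). Socs1, an inhibitor of the Jak kinases, stood at -1.64, -1.61 and -0.96 against -1.59 and -1.38 and differed by -0.05 and -0.23 within replicates (fit -0.36 ± 0.57).

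**Figure D4:**
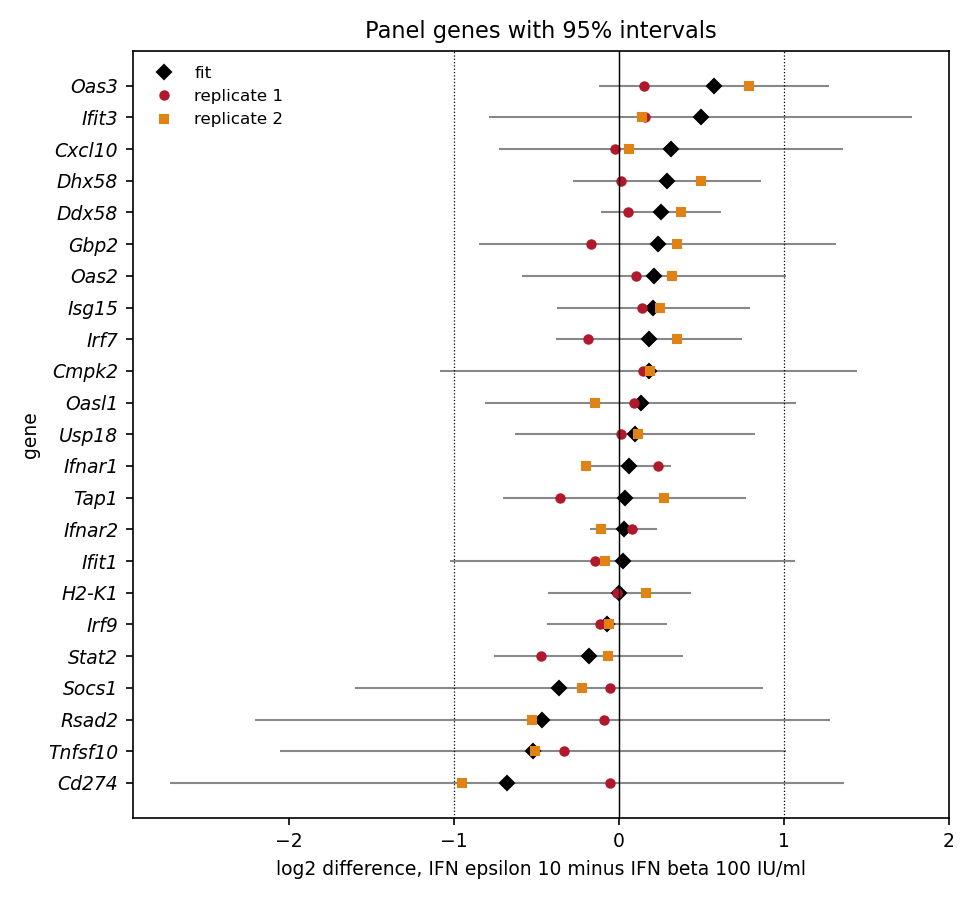
Log2 difference of IFN epsilon 10 minus IFN beta 100 IU/ml (x axis) for 23 genes of a fixed panel (y axis), with the fit and its 95% interval (diamond and line) and the differences in replicates 1 and 2 (circle and square); dotted lines mark a 2-fold difference. Every interval includes 0, from Oas3 (0.58) at the top to Cd274 (-0.68) at the bottom.

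The interferon-inducible GTPases, which act at membranes around intracellular microbes, had the highest median pair difference of these lists, 0.24 over 17 measured genes. With IFN epsilon 10, 7 rose, and with IFN beta 100, 4 (Gvin1, Igtp, Irgm1 and Irgm2). In 9 genes the level was higher with IFN epsilon in both replicates (17.2% of all genes tested were), and in 1 it was lower in both (25.1%). Only 5 of 17 intervals lay within 2-fold, against 87.8% of all genes tested. Gbp7 stood at -0.89, -0.35 and 0.22 against -1.04 and -0.92, and the groups did not overlap (pair difference 0.52 ± 0.35, interval -0.23 to 1.28). Gbp2 stood at 0.55, 1.42 and 2.62 against 0.71 and 1.06, with overlapping groups (0.24 ± 0.50). Iigp1 was well above background in 3 of 3 IFN epsilon samples, 1 of 2 IFN beta samples and 0 of 3 untreated ones. Its levels were -5.13, -3.59 and -2.97 against -6.21 and -5.01, with matched differences of 1.08 and 1.42 (fit 1.17 ± 0.87, interval -0.71 to 3.06).

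Antigen presentation by MHC class I gave 1 call at these doses. Of 23 measured genes, Tap1, a chain of the peptide transporter, rose with IFN epsilon 10, and 0 were called with IFN beta 100. The median pair difference was 0.056, with 10 genes higher with IFN epsilon in both replicates and 1 lower in both (17.2% and 25.1% of all genes tested). Tap1 stood at 0.59, 1.12 and 1.63 against 0.95 and 0.84, with matched differences of opposite sign, -0.35 and 0.27, and a fitted difference of 0.04 ± 0.34. Its changes over untreated cells were 1.65 ± 0.30 (adjusted p = 0.027) and 1.62 ± 0.34 (adjusted p = 0.12). H2-K1, a class I heavy chain, differed by 0.00 ± 0.20 (interval -0.43 to 0.44) and stood near its untreated level in both. H2-T24, a nonclassical class I gene, stood at -3.79, -3.91 and -3.65 against -4.26 and -4.05. Its groups did not overlap, and the pair differed by 0.42 ± 0.22 (interval -0.05 to 0.90). Nlrc5, a transactivator of class I genes, differed by 0.14 and 0.66 within replicates (fit 0.37 ± 0.48), and Erap1, a peptidase that trims peptides, by -0.07 and -0.41 (fit -0.61 ± 0.36).

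The lists of secreted and surface factors gave 0 calls at these doses. Of 21 measured chemokines and cytokines, 0 were called in either treatment (median pair difference -0.064). Lower with IFN epsilon in both replicates were 10, against 25.1% of all genes tested, and higher in both were 2, against 17.2%. Cxcl10, a chemokine for T cells, stood at 2.53, 2.70 and 4.70 with IFN epsilon 10, at 2.55 and 2.64 with IFN beta 100 and at 1.54, 0.83 and 2.30 untreated. Replicate 3 was the high sample in both groups that have one, and the matched differences were -0.02 and 0.06. Il6, an inflammatory cytokine, stood at -4.76, -4.51 and -2.05 against -4.09 and -4.38, so the groups overlapped although both matched differences were below 0 (-0.67 and -0.14).

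Of 15 surface ligands and checkpoints, 0 were called in either treatment. Cd274, which encodes PD-L1, stood at -2.90, -2.94 and -1.56 against -2.85 and -1.99. Its matched differences were -0.05 and -0.95, and the fitted -0.68 ± 0.94 had an interval from -2.72 to 1.36. Among 29 cell death genes, Sp100, Xaf1 and Zbp1 rose with IFN epsilon 10 and Xaf1 with IFN beta 100. Tnfsf10, which encodes the death ligand TRAIL, was well above background in 2 of 3 and 2 of 2 treated samples and in 0 of 3 untreated ones, and differed by -0.33 and -0.51 within replicates (fit -0.52 ± 0.70).

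Of all genes tested, 67 differed by over 1 on the log2 scale, from -2.87 to 2.07, and 4 of these were responders. Described here are genes from the 10 others with the largest difference among those well above background on all 5 arrays and of 1 sign in both replicates, and single arrays set most of these differences. Vdac2, a mitochondrial channel, stood at 5.39 and 5.28 with IFN epsilon 10 in replicates 1 and 2, at 1.05 in replicate 3, and between 5.44 and 5.80 in the IFN beta 100 and untreated samples. The fitted pair difference was -1.39 ± 0.91, and it was -0.16 over replicates 1 and 2 alone. Cavin3, Odc1, Ripk1 and Rad54l2 also had their lowest level of the 5 samples in replicate 3, with fitted differences from -1.22 to -0.96 that lay between -0.23 and 0.11 over replicates 1 and 2. IFN epsilon 10 replicate 3 was also the array with the lowest 75th percentile of intensity, and the part of this in these genes was not tested.

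In the same way, IFN beta 100 replicate 1 stood low for a set of genes that are no responders. Dubr, a long non-coding RNA gene, stood at -3.22 there and at -0.99 in IFN beta 100 replicate 2, the latter within a range of -1.59 to -0.72 in the IFN epsilon and untreated samples. Rbbp6, a ubiquitin ligase, was lower with IFN beta in both replicates, at -0.55 and 0.27 against 0.80, 1.00 and 0.69 with IFN epsilon. The groups did not overlap (pair difference 0.97 ± 0.25, interval 0.43 to 1.51, adjusted p = 0.9999). Its untreated samples stood at 0.48, 0.10 and 0.46, so in replicate 2 IFN beta lay above the untreated level. 4932412D23Rik also differed in both replicates, by 1.15 and 0.81 (fit 0.98 ± 0.72, interval -0.59 to 2.54). Spaca4, a sperm membrane protein, went the other way, by -1.19 in replicate 1 and -0.11 in replicate 2. IFN epsilon 10 replicates 1 and 3 stood low for it (-2.91 and -2.78). IFN beta 100 replicate 1 (-1.71) lay within its untreated range of -2.04 to -1.66. From the fixed lists, Mcm2, of the replicative helicase, and Krt18, an epithelial keratin, differed by 0.81 and 0.74 in replicate 1 and by -0.02 and -0.09 in replicate 2. When IFN beta 100 replicate 1 stood alone for its group, 140 genes were called (123 higher and 17 lower with IFN epsilon), of which 0 were responders and 50 had the same sign in replicate 2.

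The pair was then set beside the matched doses. In replicates 1 and 2 the responder median was higher with IFN epsilon at both matched doses, whereas in replicate 3 the excluded IFN beta arrays stood higher, with a median rise over untreated cells of 2.29 against 0.86 at 10 IU/ml and 2.80 against 1.95 at 100 IU/ml. Every call at the matched doses ended (0 genes, limma) with all 24 arrays, and also with only the groups compared in the fit. At an unadjusted p under 0.05, these fits gave 487 and 299 genes at 10 IU/ml and 431 and 1069 at 100 IU/ml. At 10 IU/ml of both, 17 genes were higher with IFN epsilon (0.118% of genes tested) and 0 were lower, with log2 differences from 1.15 to 2.61. All 17 were responders, among them Isg15 (2.06), Usp18 (2.48), Oas3 (2.55), Irf7 (1.82) and Dhx58 (1.92). For these 17 the difference against IFN beta 100, which shares the IFN epsilon samples, had a median of 0.24 (0.066 to 0.76), and all 17 intervals included 0. The 17 were picked as high in those IFN epsilon samples, which favours a pair difference above 0. The count was 0 without IFN beta 10 replicate 1 or without IFN epsilon 10 replicate 3, 1 without IFN epsilon 10 replicate 2, and 9 without IFN beta 10 replicate 2, with none of the 17 among them.

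At 100 IU/ml of both, 52 genes were higher with IFN epsilon (0.36%) and 0 were lower, of which 50 were responders. Among them were Gbp5 (3.88), Ifit3 (3.80), Cmpk2 (3.35), Gbp2 (3.20) and Cxcl10 (3.00). Iigp1 was called too, with a fitted 5.79, but only 1 of its 2 IFN beta 100 samples was well above background, so the size of that difference is uncertain. Against the same IFN beta samples, IFN epsilon 10 differed in these 52 genes by a median of 0.27 (-0.038 to 1.17), and 51 of 52 intervals included 0. The exception was Niban1, with an interval from 0.13 to 0.47. The 52 were picked as higher than those IFN beta samples, which favours a pair difference above 0. The count at 100 IU/ml was 0 without IFN beta 100 replicate 1 or IFN epsilon 100 replicate 2, 4 and 9 without IFN epsilon 100 replicates 1 and 3, and 259 without IFN beta 100 replicate 2. Over the 278 responders the median difference was 0.39 at 10 IU/ml, with 243 above 0, and 1.00 at 100 IU/ml, with 276 above 0, against 0.038 for the pair. Within replicates 1 and 2 these medians were 0.40 and 0.49 at 10 IU/ml and 0.77 and 1.24 at 100 IU/ml.

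**Figure D5:**
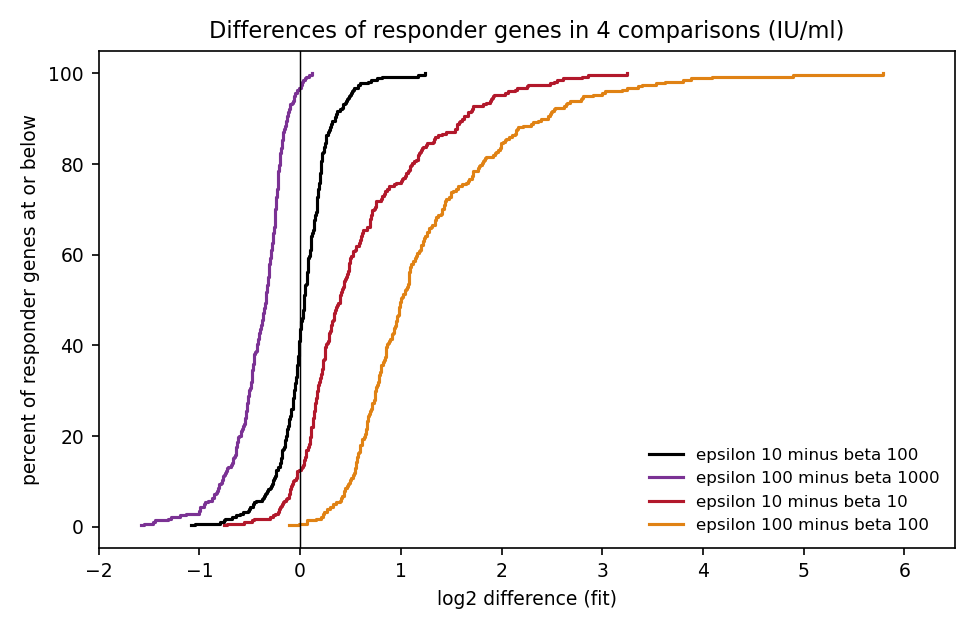
Percent of the 278 responders at or below a log2 difference (y axis) against that fitted difference (x axis) in 4 comparisons of IFN epsilon minus IFN beta. The curve of IFN epsilon 10 against IFN beta 100 crosses 0 near its middle (median 0.038), IFN epsilon 100 against IFN beta 1000 lies to the left (-0.34), and the matched doses of 10 (0.39) and 100 IU/ml (1.00) lie to the right.

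The same 10-fold offset was measured 1 dose step higher, as IFN epsilon 100 against IFN beta 1000, in treated samples of other groups. Both comparisons come from 1 fit with shared replicate effects, so they are not independent. With only the groups of the pair fitted, its responder median was 0.061, against 0.038 in the main fit. In the comparison 1 step higher, 0 genes were called (limma, 0% either way) and 904 had an unadjusted p under 0.05. The median responder difference was -0.34, with 9 genes above 0 and 269 below. The responders were selected for a rise in the same IFN beta 1000 samples, which by construction favours a difference below 0, so its sign is not a result. It was -0.13 in replicate 1, 0.0030 in replicate 2 and -0.86 in replicate 3, where the IFN beta 1000 array stood high. The difference between both offsets was 0.42 as a median over responders, which carries the same selection, with 0 genes called (limma) and 418 at an unadjusted p under 0.05. Across responders, the difference of the pair and the difference 1 step higher had a Pearson r of 0.242 and a Spearman rho of 0.266. Across all genes tested these were 0.0455 and 0.0775, given as a description across genes. The shared replicate effects enter both differences.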

How the data were processed

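Total RNA was labelled with Cy3 and hybridised to 1-colour Agilent arrays, per the labels' protocols. The deposited intensity values are processed signals that Agilent's software (Feature Extraction, version 11.0.1.1) had background-subtracted, per the file headers. The deposited value table of the authors is on the log2 scale and served as an alternative. The submitters' processing notes also name R 3.6.1 and limma 3.42.0.

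Control and outlier-flagged spots were left out, 79 to 280 per array, and 0 spots were saturated. The log2 intensity minus each array's 75th percentile was averaged over the spots of a probe and over the 2 arrays of each untreated sample. Probes had to exceed background clearly in 2 or more samples of some group, and the brightest probe stood for a gene. Of 56605 probes, 32994 were named through RefSeq (GRCm38.p6), as 22911 genes, of which 14428 were tested. The number of arrays limits the precision. limma 3.58.1 (R 4.3.3) fitted 19 samples in 7 groups with the replicate number as a block (10 residual degrees of freedom) and Benjamini-Hochberg adjustment, and all adjusted p-values are from it. In 4 genes a sample of the pair lacked a value and was dropped for that gene. The replicate number is the date of the experiment, per the labels. Samples of the same number deviated together from their group means (median r = 0.60, 0.086 to 0.77, 30 pairs). For samples of different numbers the median was -0.40 (60 pairs). Deviations from a group mean sum to 0, so that negative sign follows from the centring and is no contrast. The pair counts are those of the groups with every replicate, so the IFN beta group of the pair is not in this check. P-values measure the spread between these replicates of 1 cell line. The pipeline was tested on simulated data.

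The 5 samples, the gene lists and the named genes were chosen with earlier results of these data known. Named were a panel of 24 genes, the 10 responders with the largest difference each way and the 10 other genes with the largest difference of 1 sign in both replicates (all well above background on the 5 arrays), and the 3 largest of each list. Some genes that this rule names are not reported here. Genes named outside this rule were picked after their values were seen. Alternatives changed the scaling, background correction, filter, probe rule, samples and blocks. The normexp alternative used median signals and median background.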

Additional observations from a re-analysis of the deposited data

Results flagged for a closer look

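The IFN beta 100 array of replicate 3 that the labels exclude enters no comparison of the pair. Its median rise of the responders over untreated replicate 3 was 2.798, above all 3 untreated samples and above both IFN beta 100 samples in use (0.44 and 0.56). The difference of IFN epsilon minus IFN beta was set beside the same offset 1 dose step higher. In 4 of 83 named genes, the sign in every replicate of the pair was opposite to that in every replicate 1 step higher. The share over all genes tested is not given. Ifit3, Cmpk2 and H2-T24 are responders, selected for a rise in the IFN beta 1000 samples, which favours a negative difference 1 step higher. The fitted pair differences were 0.50 for Ifit3, 0.18 for Cmpk2, 0.42 for H2-T24 and 0.33 for Pgk1, and those 1 step higher were -0.42, -0.62, -0.47 and -0.13. Within replicates 1 and 2, the pair differed by 0.16 and 0.14 for Ifit3 and by 0.15 and 0.19 for Cmpk2. For H2-T24 these were 0.48 and 0.15, and for Pgk1 0.55 and 0.03. The test of the difference between offsets (limma) gave an adjusted p of 0.998 for each of the 4.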

How the results depend on the processing

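The count of genes called between IFN epsilon 10 and IFN beta 100 was 0 under every alternative that kept all 5 samples, and it ranged from 0 to 140 when a sample was left out. The median responder difference ranged from -0.0363 to 0.1275 when a sample was left out, and was 0.176 without the replicate block, -0.0935 with median scaling (where all genes had a median of -0.136, so responders lay 0.042 above it, as in the main scaling) and -0.542 with all 24 arrays. Without the replicate block, IFN epsilon 10 raised 29 genes and IFN beta 100 raised 16, and 13 genes were called at 100 IU/ml of both. With only the groups compared in the fit, 0 genes were called for IFN epsilon 10 and for IFN beta 100 against untreated cells, and 0 and 0 at 10 and 100 IU/ml of both. At an unadjusted p under 0.05 those were 709, 542, 299 and 1069. With all 24 arrays, these 4 counts were 0, 0, 0 and 0 (370, 1107, 487 and 431 unadjusted). At 10 IU/ml of both, 31 genes were called with median scaling, 31 with normexp and quantile normalization and 7 without a filter on dim probes, which left 19 at 100 IU/ml. With replicates 1 and 2 only, chosen after seeing the data, 2 genes were called between IFN epsilon 100 and IFN beta 1000, and 134 at 100 IU/ml of both. When 1 sample was left out, the counts ranged from 47 to 68 for IFN epsilon 10 and from 0 (without IFN beta 100 replicate 1) to 219 (without its replicate 2) for IFN beta 100 against untreated cells. They ranged from 0 to 3 for IFN epsilon 100 against IFN beta 1000, from 0 to 61 for the difference between offsets, from 0 to 16 at 10 IU/ml and from 0 to 259 at 100 IU/ml of both. A lone sample was assumed to vary like the other groups. Of the 83 named genes, 29 kept the sign of their pair difference under all alternatives run. The cause of these changes was not tested.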
